A study of Mus musculus with 2 samples.

Results

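The genes of the actin and myosin contractile apparatus and its attachment to the cell membrane were followed in mouse embryonic fibroblasts (MEFs) with and without *BCL11B*. The set holds 34 genes, chosen by name as contractile, actin-binding or SRF-regulated: actins, the calponin family, tropomyosins and other thin filament proteins, myosin chains, actin cross-linkers, focal adhesion proteins and the transcription factor *Srf*. Earlier results of these data were known when the genes were chosen. Every probe set whose platform annotation names exactly 1 of these genes was kept, which gave 86 of the 34945 probe sets paired with 1 gene, controls left out. All 34 genes had at least 1 probe set, and 13 had only 1.

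The cells were primary MEFs of C57BL/6 embryos at embryonic day 12.5, either wild type (*BCL11B*+/+) or *BCL11B*-KO (*BCL11B*−/−), which lack the zinc finger transcription factor BCL11B. At passage 2 both cultures were moved to a medium for adipocyte differentiation that held 10% fetal bovine serum and, as agents, pioglitazone at 10 μM, insulin at 10 μg/ml, dexamethasone at 1 μM and methylisobutylxanthine at 0.5 mM, and RNA was taken after 12 h. There is 1 Affymetrix mouse array for each culture, and the number of embryos behind a culture and their sex are not given in the sources used here. The deposited values are log2 expression after the robust multi-array average (RMA). With no replicate array no p-value could be computed, so a difference is the log2 value in *BCL11B*−/− minus that in *BCL11B*+/+ MEFs, and genes are counted at 1.5-fold, which is 0.58 log2 units. A gene's value is that of its brightest probe set, by the mean of both arrays, and probe sets with a mean under 5 log2 units were left out of counts because they are close to background.

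Contraction in non-muscle and smooth muscle cells is driven by bundles of actin and myosin II. Tropomyosin, caldesmon and calponin lie along the actin filament and control the access of myosin, whose activity is switched on when the regulatory light chain is phosphorylated by myosin light chain kinase. The bundles are cross-linked by α-actinin and filamin and end at focal adhesions, where vinculin, zyxin and LIM domain proteins link them to integrins. Many of these genes carry CArG boxes, to which serum response factor (SRF) binds together with myocardin-related cofactors that are released when actin polymerizes. Preadipocytes are known to take down actin stress fibers as they become adipocytes.

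The cultures differed in more than *BCL11B*. Its own mRNA was 2.26- to 2.97-fold lower in *BCL11B*−/− MEFs on 4 probe sets, whose place relative to the deleted part of the gene is not given in the sources used here. *Xist*, transcribed from the inactive X chromosome of females, read 10.80 in *BCL11B*+/+ and 4.80 in *BCL11B*−/− MEFs, while the Y-linked *Eif2s3y* read 7.89 and 8.97. The Y-linked *Kdm5d* (6.84 and 7.81) and *Uty* (6.80 and 7.61) were also read in both, so the sex makeup of the cultures differed. Fibroblast markers were bright in both cultures, with *Col1a2* at 14.06 and 13.97, though in *BCL11B*−/− MEFs 3 of 12 (*Lum*, *Dcn* and *Thy1*) were lower by 1.5-fold or more. In RNA from whole cultures, fewer cells of a type and less RNA per cell cannot be told apart. Of the chondrocyte markers past the minimum 5 of 6 were at least 1.5-fold higher, with a summed linear signal over 9 markers of 523 and 1026 in *BCL11B*+/+ and *BCL11B*−/− MEFs, from *Acan* at 0.45 to *Comp* at 1.63. Of the macrophage markers 8 of 9 were lower by the same rule, with a summed signal over 11 markers of 3946 and 2269, from *Laptm5* at −0.95 to *Cd14* at −0.06. As means over all their probe sets *Csf1r* (−0.53), *Laptm5* (−0.36) and *Ptprc* (−0.35) fell short of 1.5-fold, as did the chondrocyte marker *Sox9* (0.55). *Ptprc*, at 5.81 and 4.998, passed the minimum through the *BCL11B*+/+ array. Pericyte markers, which share the mural lineage with smooth muscle, had a median of 0.24 over 7 genes, none at 1.5-fold, and summed to 684 and 789. They ranged from *Abcc9* at −0.17 to *Cspg4* at 0.50. The 3 endothelial markers past the minimum were *Flt1* (−0.32), *Kdr* (0.15) and *Cldn5* (0.39). The part of these differences in the level of contractile genes was not tested.

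Contractile genes were mostly higher in *BCL11B*−/− MEFs. Of the 33 genes past the expression minimum, 10 were at least 1.5-fold higher, 2 were at least 1.5-fold lower and 21 were neither. Among all 12331 genes past the same minimum, 1.61% were higher and 1.75% were lower by this rule. A short list with no gene past 1.5-fold is thus no departure from all genes. At 1.2-fold the contractile genes gave 23 higher and 2 lower, against 8.81% and 7.80% of all genes. Their median difference was 0.37 log2 units, where the median of all genes was 0, and 28 of the 33 lay above 0, against 48.8% of all genes. The 25 contractile genes with a mean of at least 7 held 8 that were higher, against 1.45% of all genes as bright. Since the set was chosen with earlier results of these data known, these shares and the median are no independent result. The 10 higher genes were *Myl9*, *Csrp1*, *Cnn2*, *Tagln*, *Pdlim7*, *Lmod1*, *Tpm2*, *Acta2*, *Tpm1* and *Cnn1*. The 2 lower genes, *Actc1* and *Tnnt2*, encode proteins best known from the heart muscle sarcomere. With the mean over all probe sets of a gene in place of the brightest, 6 were higher and 1 was lower. *Acta2* (0.19), *Tpm1* (0.38), *Tpm2* (0.52), *Pdlim7* (0.56) and *Tnnt2* (−0.53) then fell short of 1.5-fold. Of those that stayed, *Myl9*, *Cnn2*, *Tagln*, *Lmod1*, *Cnn1* and *Actc1* have only 1 probe set, so this mean could not change them. Only *Csrp1* (0.65) stayed past 1.5-fold on several probe sets.

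**Figure D1:**
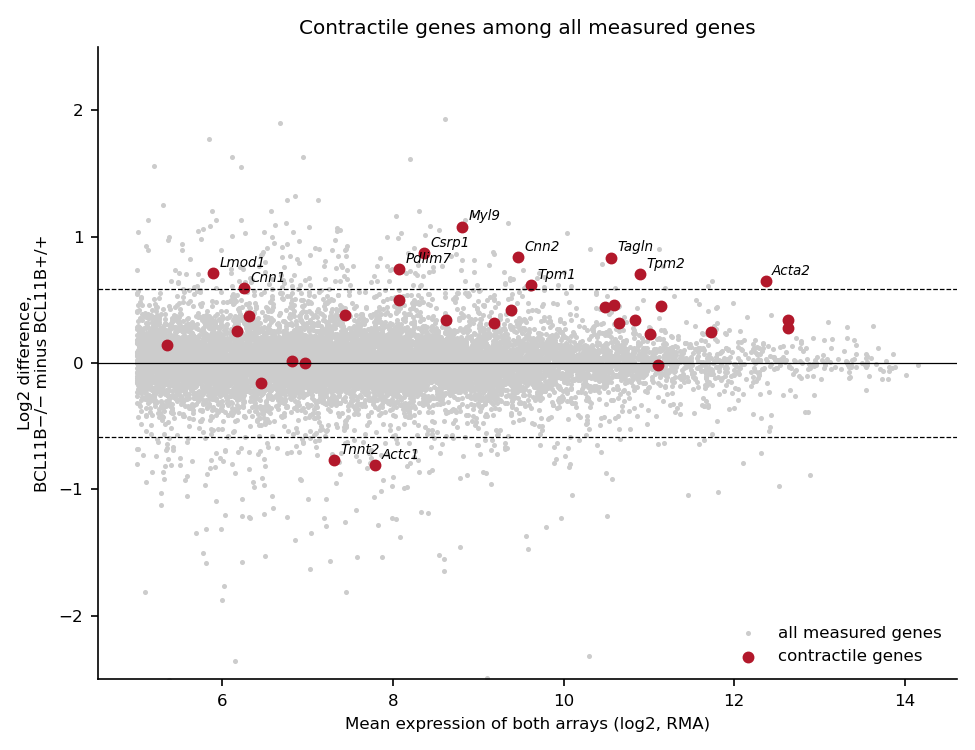
Log2 difference between *BCL11B*−/− and *BCL11B*+/+ MEFs (vertical axis) against the mean log2 expression of both arrays (horizontal axis) for all 12331 measured genes (grey) and the 33 contractile genes (red), with dashed lines at 1.5-fold and 1 array per genotype. Most red points lie above 0, up to *Myl9* at 1.08, while *Actc1* and *Tnnt2* lie below the lower line. The axis ends at 2.5 and leaves out 3 genes.

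By single probe sets the picture was similar. Of the 86, 68 had a mean of at least 5, and of these 15 were at least 1.5-fold higher and 4 at least 1.5-fold lower, against 1.40% and 1.65% of all 21614 such probe sets. The median over the 68 was 0.33. Several probe sets past the minimum were present for 15 contractile genes. All probe sets lay above 0 for 10 of them, all below 0 for 1, *Tnnt2*, and on both sides of 0 for 4, *Tpm3*, *Myh9*, *Lpp* and *Srf*. The 18 probe sets with a mean under 5 ranged from −0.53 to 0.43 and none reached 1.5-fold. Differences of probe sets of 1 gene had a pooled SD of 0.246 over the 15 contractile genes, against 0.145 over 5543 genes in all, so differences within about 0.2 log2 units are no larger than the disagreement between probe sets of 1 gene. That spread can hold differences between isoforms and says nothing of the variation between cultures.

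**Figure D2:**
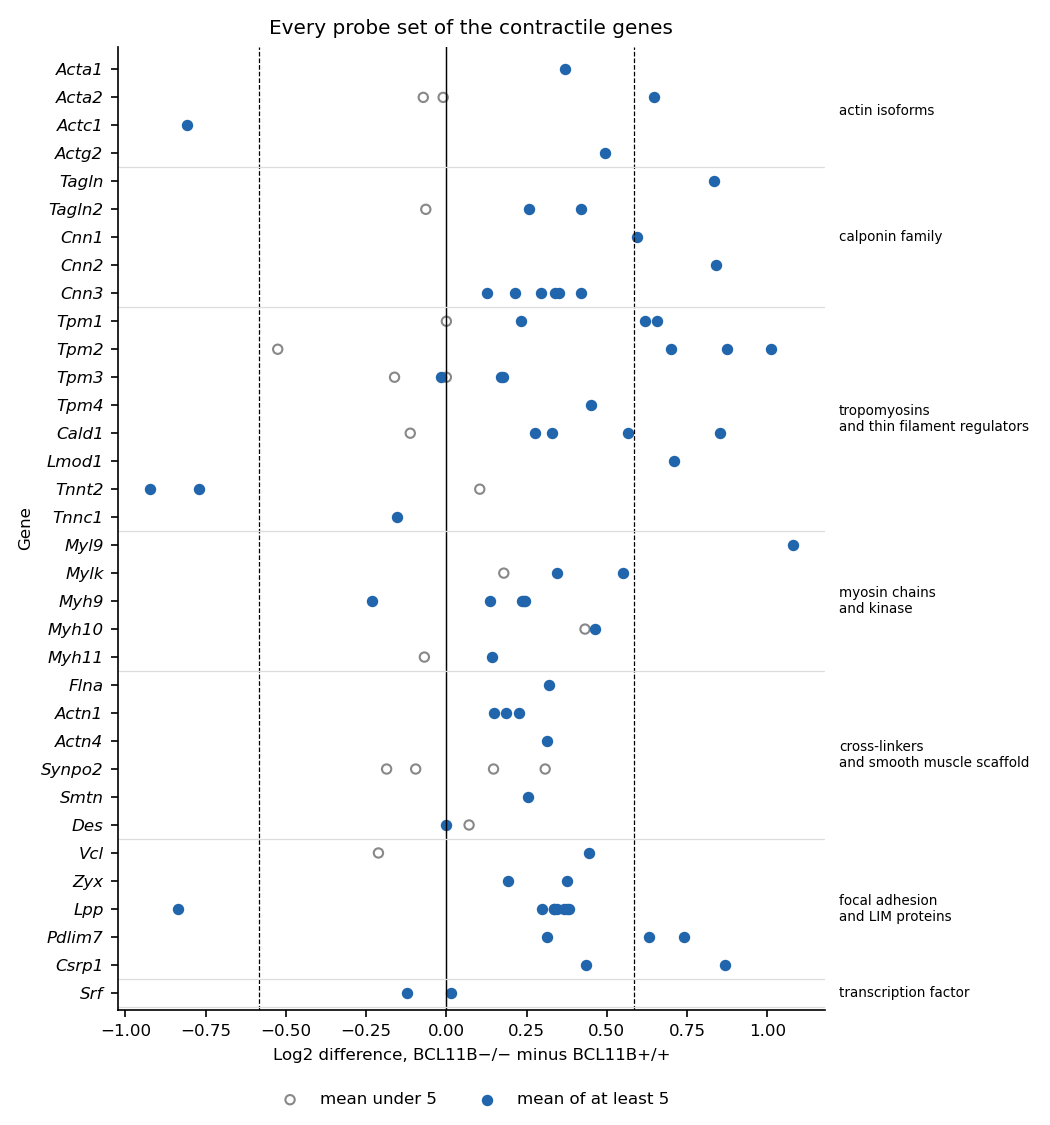
Log2 difference between *BCL11B*−/− and *BCL11B*+/+ MEFs (horizontal axis) of each probe set of the 34 contractile genes (vertical axis, grouped by role), with dashed lines at 1.5-fold. Filled points have a mean of at least 5 log2 units and open points a lower mean. Open points lie near 0 beside filled points of *Acta2* and *Tpm1*, and 1 filled point of *Lpp* lies at −0.84, far from the other 7 between 0.30 and 0.38.

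To set the differences beside the promoter sequence, RefSeq promoters (GRCm38.p6, 250 bases before to 50 after the start) were searched for the CArG box, which is CC, then 6 letters that are each A or T, then GG, and reads the same on both strands. Promoters were found for 31 of the 34 genes and not for *Actg2*, *Tagln* and *Myh11*. The box was present in the promoters of 6 of the 31 genes, or 6 of their 36 promoters, against 1.63% of all 32851 promoters. The genes were chosen in part as known SRF targets, so this share is no independent result. The box lay 161 bases upstream of the start in *Myl9*, 56 in *Cnn2*, 227 in *Vcl*, 73 in *Acta1* and 47 in *Actc1*. *Srf* itself held a pair, 82 and 62 bases upstream. The windows around these boxes are shown because their genes span nearly the whole range of differences, from 1.08 for *Myl9* and 0.84 for *Cnn2* through 0.45 for *Vcl*, 0.37 for *Acta1* and 0.01 for *Srf* to −0.81 for *Actc1*. The last line shows *Acta2*, whose promoter held no such box but a version with a C among the inner letters, 84 bases upstream. Another version, with a G among the inner letters, lay 34 bases upstream and outside the stretch shown. Sequences run 5′ to 3′ on the strand of the gene, and capitals mark the box.
*Myl9*, chr2:156775268-156775347, plus strand: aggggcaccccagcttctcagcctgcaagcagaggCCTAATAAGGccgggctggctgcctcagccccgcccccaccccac
*Cnn2*, chr10:79988509-79988588, plus strand: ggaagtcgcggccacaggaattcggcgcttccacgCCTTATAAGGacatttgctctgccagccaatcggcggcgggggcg
*Vcl*, chr14:20929148-20929215, plus strand: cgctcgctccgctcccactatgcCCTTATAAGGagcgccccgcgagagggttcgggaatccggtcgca
*Acta1*, chr8:123894804-123894883, minus strand: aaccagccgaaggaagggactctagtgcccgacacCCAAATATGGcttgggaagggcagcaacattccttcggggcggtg
*Srf*, chr17:46556200-46556279, minus strand: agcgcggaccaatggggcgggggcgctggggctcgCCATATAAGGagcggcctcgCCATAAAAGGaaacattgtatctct
*Actc1*, chr2:114052878-114052957, minus strand: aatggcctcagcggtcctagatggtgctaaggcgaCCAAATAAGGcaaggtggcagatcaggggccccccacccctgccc
*Acta2*, chr19:34255413-34255492, minus strand: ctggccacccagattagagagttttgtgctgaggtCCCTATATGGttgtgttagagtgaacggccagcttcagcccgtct

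A box with exactly 1 C or G among its inner letters occurred in promoters of 6 of the 31 genes (*Acta1*, *Acta2*, *Actc1*, *Myl9*, *Tpm3* and *Lpp*), or 7 of the 36 promoters, against 8.50% of all promoters. The letters CATTCC on either strand, the core of the MCAT element to which TEAD factors bind, occurred in promoters of 15 of the 31 genes. That is 15 of 36 promoters, against 14.7% of all promoters. The set was chosen by name as contractile and the motifs after the differences were seen, so these shares are no independent result. The genes with CATTCC were mostly above 0, like the set as a whole, with *Lmod1* (0.71), *Acta2* (0.65) and *Tpm1* (0.62) past 1.5-fold. Only *Tnnt2* (−0.77) and *Tnnc1* (−0.15) among them were below 0. Of the 10 higher genes, *Csrp1*, *Pdlim7*, *Tpm2* and *Cnn1* held neither form of the CArG box nor CATTCC in this window. A match of letters is no measured binding.

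**Figure D3:**
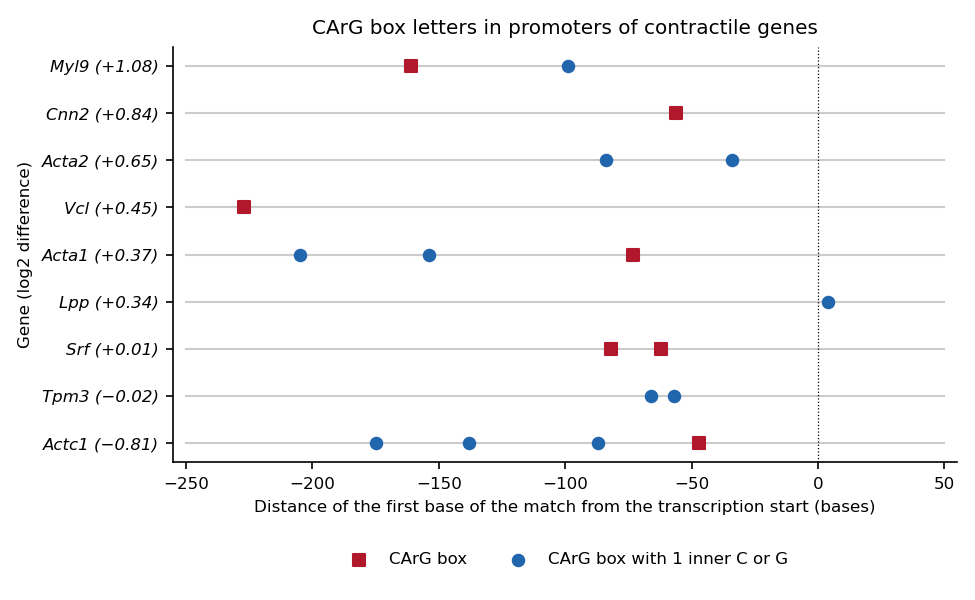
Distance of each CArG box match from the transcription start in bases (horizontal axis) for the contractile genes that have one (vertical axis, ordered by their log2 difference, in brackets). Squares are CArG boxes and circles are boxes with 1 inner C or G, and the 2 circles of *Tpm3* come from different promoters. Squares occur from *Myl9* at the top to *Actc1* at the bottom.

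The actin isoforms differed in both directions. *Acta2*, the smooth muscle α-actin of stress fibers in myofibroblasts, read 12.04 in *BCL11B*+/+ and 12.69 in *BCL11B*−/− MEFs, which is 1.57-fold higher. Its other probe sets, at 3.90 and 3.72 in *BCL11B*+/+ MEFs, were near background and differed by −0.07 and −0.01, so the mean over its probe sets was 0.19. *Actg2*, the smooth muscle γ-actin, read 7.82 and 8.32, a difference of 0.50 that falls short of 1.5-fold. *Acta1*, the skeletal muscle α-actin, read 6.12 and 6.49. *Actc1*, the cardiac α-actin, was the exception with 8.20 in *BCL11B*+/+ and 7.39 in *BCL11B*−/− MEFs, 1.75-fold lower. The coding regions of these actins are nearly identical, and how far their probe sets read each other's transcripts is not known here. The cytoplasmic actins, which are not in the set, differed by 0.19 (*Actb*) and 0.33 (*Actg1*), and the β-actin control probe sets of the array by 0.18 at the 3′ end, 0.29 in the middle and 0.35 at the 5′ end. The gap between its 3′ and 5′ ends, a sign of RNA quality, was 1.64 in *BCL11B*+/+ and 1.47 in *BCL11B*−/− MEFs, and its part in the differences was not tested.

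The differences of all 5 genes of the calponin family were above 0, and 3 were at least 1.5-fold. *Tagln*, which encodes the actin-bundling protein transgelin or SM22α, read 10.14 in *BCL11B*+/+ and 10.97 in *BCL11B*−/− MEFs, 1.78-fold higher on its only probe set. *Cnn2*, the calponin of non-muscle cells, read 9.05 and 9.89, 1.79-fold higher. *Cnn1*, the smooth muscle calponin, read 5.96 and 6.55, and at 1.51-fold it lay just past the threshold. The other members of the family stayed under it. *Tagln2* differed by 0.42 and 0.26 on its probe sets past the minimum, and *Cnn3*, an acidic calponin, differed by 0.13 to 0.42 on its 6 probe sets.

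Among tropomyosins, *Tpm1* and *Tpm2*, from which smooth muscle takes its main isoforms, were past 1.5-fold and *Tpm3* and *Tpm4* were not. *Tpm2* read 10.54 in *BCL11B*+/+ and 11.24 in *BCL11B*−/− MEFs, 1.63-fold higher. Its next probe sets read 9.50 and 10.37, and 7.0 and 8.01, differences of 0.87 and 1.01. The 3 bright probe sets of *Tpm2* thus lay on the same side, while a dim one at 4.79 and 4.27 differed by −0.53. With that probe set the mean over the 4 was 0.52, short of 1.5-fold. *Tpm1* read 9.31 and 9.93 on its brightest probe set and 8.78 and 9.44 on the next, differences of 0.62 and 0.66. Another, at 4.93 and 5.17, differed by 0.23, and the dimmest read 3.49 on both arrays, so that the mean over its probe sets was 0.38. *Tpm4* read 10.92 and 11.37, a difference of 0.45. *Tpm3* was level, with 11.12 and 11.10, and its other probe sets past the minimum differed by 0.17 and 0.18.

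Other genes of the thin filament differed in both directions. *Lmod1*, the smooth muscle leiomodin that starts actin filaments, read 5.54 in *BCL11B*+/+ and 6.25 in *BCL11B*−/− MEFs, 1.64-fold higher. *Cald1*, caldesmon, was higher on all 4 probe sets past the minimum but by unequal amounts. The brightest read 12.49 and 12.77, a difference of 0.28, and the others differed by 0.85 (11.10 and 11.95), 0.33 and 0.57. Which caldesmon isoform each probe set reads is not given in the annotation used here. *Tnnt2*, the cardiac troponin T, read 7.69 in *BCL11B*+/+ and 6.92 in *BCL11B*−/− MEFs, 1.70-fold lower. A second probe set of *Tnnt2* read 7.52 and 6.60, a difference of −0.92, and a dim one at 4.09 and 4.19 differed by 0.10. *Tnnc1*, the troponin C of slow and cardiac muscle, read 6.53 and 6.37, which is within the disagreement between probe sets.

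**Figure D4:**
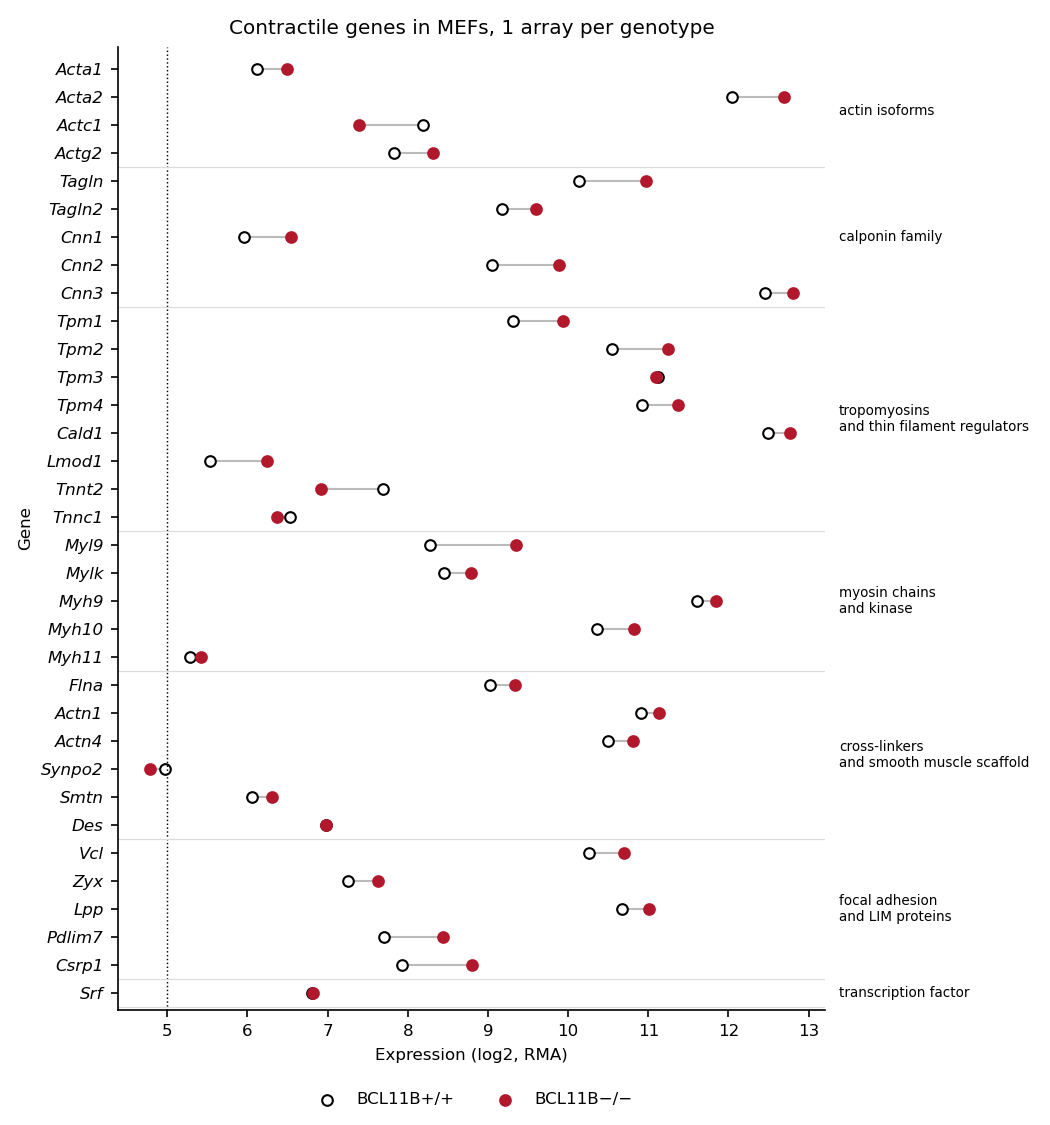
Expression (horizontal axis, log2 after RMA) of the 34 contractile genes (vertical axis, grouped by role) in *BCL11B*+/+ (open circles) and *BCL11B*−/− MEFs (filled circles) on the brightest probe set of each gene, from 1 array each and so without error bars. The dotted line marks the minimum of 5, which *Synpo2* does not reach. Filled circles lie to the right for most genes, farthest for *Myl9* (8.27 and 9.35), and to the left for *Actc1* and *Tnnt2*. Positions of different genes along the axis are not comparable, since probe sets differ in brightness.

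The myosin genes were led by a light chain. *Myl9*, the regulatory light chain of smooth muscle and non-muscle myosin II, read 8.27 in *BCL11B*+/+ and 9.35 in *BCL11B*−/− MEFs. At 2.11-fold higher, on its only probe set, it had the largest difference of the 33 contractile genes and was the 27th highest of all 12331 genes. No heavy chain reached 1.5-fold. *Myh10*, non-muscle myosin IIB, read 10.36 and 10.82, a difference of 0.46, and a probe set under the minimum differed by 0.43. *Myh9*, non-muscle myosin IIA, read 11.60 and 11.85, and its 4 bright probe sets differed by 0.14 to 0.25, while a fainter one at 5.49 and 5.26 differed by −0.23. *Myh11*, the smooth muscle heavy chain and a defining gene of mature smooth muscle cells, was close to the minimum in both cultures, at 5.28 and 5.42, and its other probe set differed by −0.07. *Mylk*, the kinase that phosphorylates the light chain, differed by 0.34 and 0.55 on its probe sets past the minimum.

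Cross-linkers and scaffold proteins of smooth muscle showed small differences, none at 1.5-fold. *Flna* (filamin A) differed by 0.32, and *Actn4* and *Actn1*, the α-actinins that bundle stress fibers, by 0.31 and 0.23. The other probe sets of *Actn1* differed by 0.15 and 0.19. *Smtn*, smoothelin, read 6.05 and 6.31. *Des*, the muscle intermediate filament gene desmin, read 6.97 on both arrays. Equal values are frequent here, since 5.82% of named probe sets read the same on both arrays within 1e-09 log2 units, 3 of them contractile. *Synpo2*, which encodes the Z-disc and stress fiber protein synaptopodin-2, had no probe set past the minimum, and its 4 dim probe sets differed by −0.19 to 0.31.

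All 5 focal adhesion and LIM domain genes were above 0 on their brightest probe set, and 2 were past 1.5-fold. *Csrp1*, a LIM protein of actin filaments in smooth muscle, read 7.93 in *BCL11B*+/+ and 8.80 in *BCL11B*−/− MEFs, 1.82-fold higher, the second largest difference of the set. Its other probe set read 7.12 and 7.55, a difference of 0.43. *Pdlim7*, a PDZ and LIM protein of actin bundles, read 7.70 and 8.44, 1.67-fold higher, and its other probe sets differed by 0.63 and 0.31. The mean over all its probe sets, 0.56, falls just short of 1.5-fold. The remaining genes differed less. *Vcl*, vinculin, read 10.26 and 10.70, and a probe set near background differed by −0.21. *Zyx*, zyxin, read 7.25 and 7.63, and its other probe set differed by 0.19. *Lpp*, a relative of zyxin, was higher by 0.30 to 0.38 on 7 of its 8 probe sets, from the brightest at 10.67 and 11.01 to the dimmest at 5.20 and 5.50. The remaining one lay on the other side with 8.27 and 7.43, a difference of −0.84. The transcript part that this probe set reads is not given in the annotation used here, and the reason for its departure was not tested.

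*Srf*, the factor that binds CArG boxes, did not differ beyond the disagreement between probe sets. It read 6.81 in *BCL11B*+/+ and 6.82 in *BCL11B*−/− MEFs, and 6.29 and 6.17 on its other probe set, a difference of −0.12. None of its 6 cofactor genes reached 1.5-fold, which few of all genes did (1.61% higher and 1.75% lower), and their median was 0.16. *Mrtfa*, a myocardin-related cofactor, differed by 0.30, *Myocd*, myocardin itself, by 0.26 at 5.06 and 5.32, near the minimum, and the ternary complex factors *Elk3* and *Elk4* by 0.24 and −0.07. Of 6 immediate early genes past the minimum, a group that SRF controls through ternary complex factors, none reached 1.5-fold. Their median was −0.29, with *Fos* at −0.45 and *Egr1* at −0.33 lowest and *Junb* at 0.19 and *Egr3* at 0.53 highest. As means over 2 probe sets each, *Egr2*, at −0.32 on the brighter one, was at −0.53 and *Egr3* at 0.25.

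Genes next to the contractile set were described by lists of related genes. At the shares of all genes given above, a short list with none at 1.5-fold is no departure. Of 15 other focal adhesion genes past the minimum, all were above 0 but none reached 1.5-fold, with a median of 0.15, from *Lims1* at 0.04 to *Tln2*, a talin, at 0.35. Actin dynamics genes had a median of 0.17 over 12 genes, none of them at 1.5-fold, from *Gsn*, the filament-severing gelsolin, at −0.26 to *Actg1* at 0.33. The 7 other non-muscle myosin genes also held none, with a median of 0.17, from *Myh14* at −0.07 to *Myo1c* at 0.19. Larger differences in both directions were found among other LIM and PDZ genes, with a median of 0.40 over 9. *Pdlim4* read 7.0 in *BCL11B*+/+ and 7.92 in *BCL11B*−/− MEFs and *Pdlim2* read 7.03 and 7.88, while *Ablim1*, an actin-binding LIM protein gene, read 7.37 and 6.15, or 2.33-fold lower. As the mean over its 4 probe sets *Ablim1* was at −0.50, short of 1.5-fold. Other smooth muscle genes were likewise mixed, with a median of 0.10 over 11. *Synm*, an intermediate filament gene, was higher by 0.91 and *Fhl2*, a LIM-only protein gene, by 0.70. *Pgm5*, which encodes a protein of muscle adhesions, differed by −0.60, and *Svil*, supervillin, by −0.56. The second probe set of *Synm* brought its mean to 0.44.

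**Figure D5:**
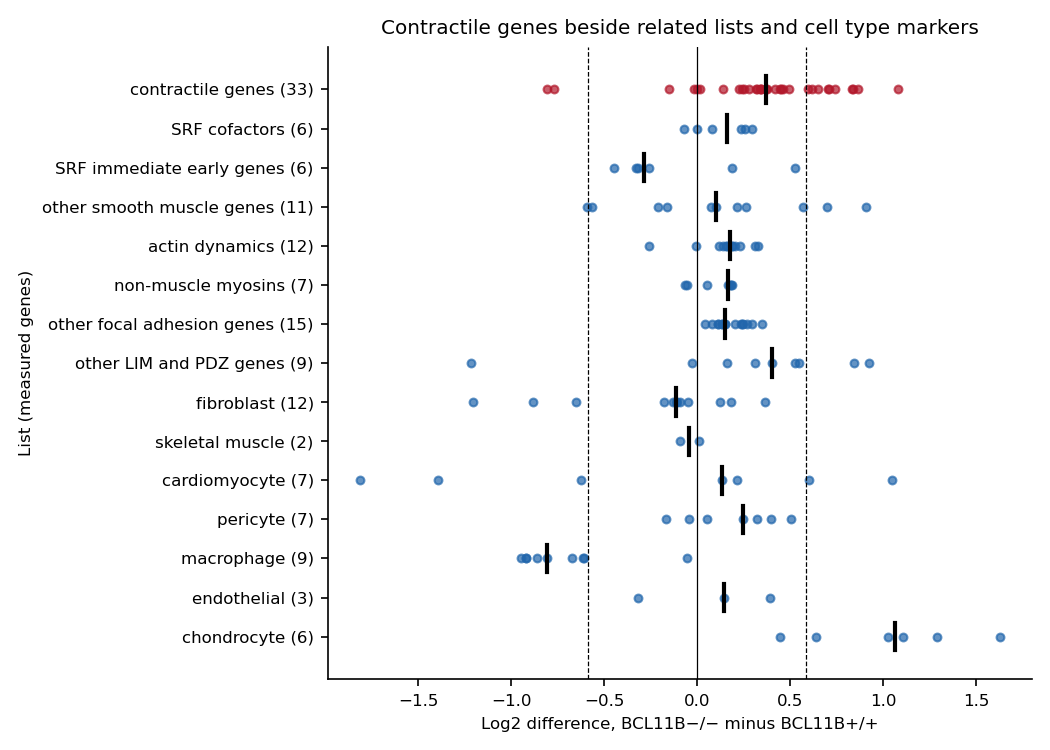
Log2 difference between *BCL11B*−/− and *BCL11B*+/+ MEFs (horizontal axis) of the contractile genes (red) and of genes of related lists (blue), with the number of measured genes in brackets, list medians as black bars and dashed lines at 1.5-fold. The contractile median lies at 0.37, other focal adhesion genes keep to a narrow band from 0.04 to 0.35, and cardiomyocyte genes spread from −1.81 to 1.05.

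Markers of heart muscle differed in both directions beside the lower *Actc1* and *Tnnt2*. Of 10 cardiomyocyte markers 7 were past the minimum, of which 3 were at least 1.5-fold lower, 2 at least 1.5-fold higher and 2 neither. That count depends on the minimum, since *Myl2* and *Myl3* passed it through the *BCL11B*+/+ array and *Tnni3*, cardiac troponin I, did not pass at 4.82 and 4.22. *Myl2*, the ventricular light chain, read 6.00 in *BCL11B*+/+ and 4.19 in *BCL11B*−/− MEFs, the latter near background. *Myh6*, the α-myosin heavy chain, read 7.55 and 6.15, 2.63-fold lower, while its other probe set was near background at 2.06 and 2.12. *Myl3*, another ventricular light chain, differed by −0.62, −0.55 and −1.22 on its 3 probe sets. The opposite was seen for *Nppa*, the atrial natriuretic peptide, which read 6.82 and 7.87, and for *Myl7*, the atrial light chain, which read 5.37 and 5.97. The list summed to 625 and 581 on the linear scale. Transcription factors of the heart were near the minimum and differed little on their brightest probe sets, *Nkx2-5* at 5.36 and 5.57 and *Gata4* at 5.43 and 5.56. A dim probe set of *Gata4*, at 3.87 and 4.35, differed by 0.48. Of 14 skeletal muscle markers only *Tnni1* and *Ckm* passed the minimum, and the defining factors *Myod1* (3.74 and 3.81) and *Myog* (4.43 and 4.47) were near background in both cultures. The part of heart muscle cells in the lower *Actc1* and *Tnnt2* was not tested.

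By the weighted average difference, the ranking used in the study, which multiplies a log2 difference by relative expression, bright contractile genes stood high. Of 45037 probe sets ranked 86 were contractile. Among the 100 highest were 9 probe sets of 7 contractile genes, and none was among the 100 lowest. The leading one was the *Cald1* probe set with a difference of 0.85 at rank 11, followed by *Myl9* at rank 18, *Tagln* at 21, *Tpm2* at 25 and *Acta2* at 30. Among the 500 highest were 27 probe sets of 17 contractile genes, and among the 500 lowest were 4, of *Actc1*, *Tnnt2* and *Lpp*. Brightness enters the rank, and the brightest *Cald1* probe set stood at 471 with a difference of only 0.28. The share of equally bright probe sets that rank as high was not computed.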

How the data were processed

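Total RNA of *BCL11B*+/+ and *BCL11B*−/− MEFs (100 ng, 1 array each) was hybridized by the authors for 16 h at 45 °C. The deposited values are log2 expression, which the authors made with RMA (the submitters' processing notes name R 3.0.3): background correction, normalization between arrays and summary of probes. Normalization makes both distributions alike, so a change in total mRNA would not be seen, and background pulls differences of dim genes toward 0. Precision is limited by the number of arrays.

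Of 45101 probe sets, 64 were controls, 34958 were paired with 1 gene, 932 with several and 9211 with none. All 34 genes matched a RefSeq Entrez identifier and no symbol changed. The naming rule was every contractile gene with its probe sets and up to 2 highest and 2 lowest genes of each list; further list genes were chosen after their values were seen. The contractile genes and lists were chosen with earlier results of these data known. The motifs were chosen after the differences were seen. A group of genes is not reported here. Alternatives were other choices of probe set, a loess curve (span 0.4) or the median of 41 ribosomal protein genes subtracted, other minimums and other folds. Python 3.11.15, numpy 2.4.6, pandas 2.3.3, statsmodels 0.14.6 and matplotlib 3.10.9 were used.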

Additional observations from a re-analysis of the deposited data

How the results depend on the processing

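The main limit is 1 array per genotype. Differences between embryos, cultures or sexes cannot be told apart from those of genotype, and no library could be left out. No paired analysis was possible because each genotype has 1 array. The loess curve ranged from −0.011 to 0.014 and the ribosomal protein median was −0.012. Neither changed a count of contractile genes or probe sets by over 1.5 times, or a median beyond the spread of probe sets. That spread is the pooled SD between probe sets of 1 gene over all genes, 0.145 log2 units. With the mean over all probe sets 6 genes were higher and 1 lower, though all but *Csrp1* have only 1 probe set and could not change. Leaving out probe sets whose names mark cross-hybridization or shared transcripts (_x, _s, _a), 1 of 23 genes was lower. At 1.2-fold 23 genes and 42 probe sets were higher. At 2-fold 1 gene and 2 probe sets were higher, and 0 genes and 0 probe sets lower. The median kept within the spread of probe sets in each alternative. Of 130 alternative values of single contractile genes 117 moved by less than that spread and 10 by more. Most of the 117 could not have moved so far. The loess curve and the ribosomal protein median shift a value too little, and a gene with 1 probe set keeps its value whichever is chosen. Without suffixed probe sets 3 genes past 1.5-fold changed sign, *Acta2* to −0.072, *Tpm2* to −0.53 and *Tnnt2* to 0.10, where a probe set under the minimum remained. Of genes short of 1.5-fold, *Srf* changed sign too (−0.12), and with the mean over all probe sets *Srf* (−0.05), *Tpm3* (0.03) and *Synpo2* (0.04). Of 88 list medians 10 moved by more than the spread, and those under the loess curve or the ribosomal protein median again could not. With the mean over all probe sets the chondrocyte median went from 1.07 to 0.76 and the macrophage median from −0.81 to −0.61. That of cardiomyocyte markers then was 0.41 over 4 genes. Without a minimum the chondrocyte median was 0.64, and with a mean of at least 7 only 1 such marker was left, also at 0.64. Without suffixed probe sets the median of other LIM and PDZ genes went from 0.40 to 0.25. With a mean of at least 7 the median of other smooth muscle genes was −0.16 over 7 genes. Only 1 endothelial marker, *Flt1* at −0.32, and 1 cardiomyocyte marker, *Nppa* at 1.05, were as bright, so these are values of single genes. Without a minimum the median of cardiomyocyte markers was −0.26, against 0.13 as plotted. The cause of these changes was not tested, except that stricter folds count fewer genes by construction. A higher minimum likewise leaves fewer genes in a list.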
